A study of Rattus norvegicus with 44 samples.

Results

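The genes described here are the cytosolic ribosomal proteins, the structural proteins of the ribosomes that translate nuclear mRNA. They were found by symbol alone: a probe set counted when the platform annotation gave it exactly 1 gene, named Rpl or Rps plus a number, Rplp0 to Rplp2 or Rpsa. Ribosomal S6 kinases and symbols ending in -ps or in l plus a number were left out. The rule found 51 probe sets for 45 genes, of 31042 probe sets and 14217 named genes in all. Of the 45 genes, 15 belong to the small (40S) subunit and 30 to the large (60S) subunit. A gene stands for its brightest probe set, which was the same in liver and kidney for all 45. Read to the letter, the rule keeps *Rps27l* and *Rpl3l*, paralogues of *Rps27* and *Rpl3*, and *Rps4y2*. A further 30 probe sets are annotated to several ribosomal protein symbols, and no gene is named from them. *Rplp1*, *Rplp2*, *Rps19*, *Rps27*, *Rpl36a*, *Rpl36al*, *Rpl10* and *Rpl10l*, 8 names that the rule admits, had no probe set of their own here.

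The ribosome is built from ribosomal RNA and one copy of nearly every ribosomal protein, so the cell makes these proteins in matched amounts. Their genes lie apart, but their mRNAs are among the most plentiful of a cell, and in mammals they begin with a run of pyrimidines (a 5′ terminal oligopyrimidine tract) through which mTOR signalling controls their translation. In liver, an organ that secretes much of the blood's protein, ribosome supply follows feeding and growth.

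Male Harlan Sprague Dawley rats, 6 to 8 weeks old at assignment, were gavaged on each of 5 days with corn oil (5 mL/kg) that carried crude 4-methylcyclohexanemethanol (MCHM), a coal-washing chemical, and were killed a day after the last dose. The 7 groups of each organ received 0 mg/kg (corn oil alone, the vehicle), 0.1, 1, 10, 100, 300 or 500 mg/kg. Liver gave 27 arrays, with 4 per group but 3 at 0.1 mg/kg, and kidney gave 17: 3 in vehicle and in both top doses, 2 elsewhere. RNA was read on Affymetrix rat arrays with probe sets near the 3′ end of transcripts, and the values are log2 intensities. All groups share the vehicle oil, the diet and the sex given in the labels. The arrays of a group are biological replicates per the labels. No label says whether a liver and a kidney array came from 1 rat. Per the series' design text, samples with batch effects had been taken out before deposit, which is why some groups are small.

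A few facts of the series bear on every result. Markers fitted the labelled organs: the mean level of 6 hepatocyte genes lay between 13.58 and 13.83 on the log2 scale in vehicle and 500 mg/kg liver arrays and between 3.56 and 3.88 in the matching kidney arrays, where 6 proximal tubule genes lay between 11.96 and 12.15. Replicate 2 of vehicle was high for *Xist*, an RNA made from an inactive X chromosome, in both organs (10.999 in liver, 9.33 in kidney), although the labels call all rats male; other arrays reached at most 3.04 and 2.59. In the kidney array of 300 mg/kg replicate 2, the *Gapdh* control read 2.00 higher at its 3′ than at its 5′ probe set, against 0.60 at most in the other kidney arrays. Without the vehicle arrays with high *Xist*, the median member difference at 500 mg/kg given below was -0.0685 in liver in place of -0.0796, and 0.057 in kidney in place of 0.0702. In whole tissue, fewer cells of a type and less RNA per cell cannot be told apart. The normalization gives all arrays nearly the same distribution, so a shift of most transcripts in one direction would not be seen.

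The start regions of the genes are shown first, because of the pyrimidine tract described above, which some other transcripts carry too. RefSeq (assembly GRCr8) gave a start region for 38 of the 45 genes, from 250 bases before to 50 bases after the start of an annotated transcript. The lines below run from 15 bases before to 15 bases after that start, 5′ to 3′ on the gene's strand. Capitals mark a run of at least 7 pyrimidines that begins with C and overlaps the 5 bases on either side of the start. The first 6 are members with such a run that the results return to:
Rps23, chr2:23814502-23814531, plus strand: tgggtccttcctgCCTCTCTTCTCTCTTTC
Rps24, chr16:96502-96531, plus strand: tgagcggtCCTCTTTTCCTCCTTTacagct
Rpl27a, chr1:172974558-172974587, plus strand: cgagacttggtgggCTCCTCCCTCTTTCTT
Rpl35a, chr11:81235007-81235036, minus strand: gcgggtcttgCCTTCCTCTTTCCgccatct
Rplp0, chr12:46718376-46718405, minus strand: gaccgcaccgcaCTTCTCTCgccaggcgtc
Rpl4, chr8:73566462-73566491, plus strand: taagttCTTCCTTTTCCTgtgggagcagcc
The next 4 are members with no such run at the annotated start, again among those the results return to:
Rpl41, chr7:1563483-1563512, minus strand: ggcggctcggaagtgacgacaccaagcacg
Rps16, chr1:92770643-92770672, plus strand: cctggaaaatcggtcggggtggccccaagc
Rps27l, chr8:76443643-76443672, plus strand: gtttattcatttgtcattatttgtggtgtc
Rpl3l, chr10:14258431-14258460, plus strand: gacctctggtgcctggtggggaggtccctt
A run overlapped the start in 20 of 38 members (52.6%) and in 3128 of 33469 start regions of all genes (9.35%). An annotated start can lie some bases from the start in use, so the lack of a run says only that these letters are not in this window.

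Another 4 motifs, searched on both strands over the whole 300 bases, were met as follows. CTTTCC was in 17 of 38 members (44.7%) and in 26.4% of all start regions, and it can lie inside a pyrimidine run. CCGGAAG, the core that ETS factors bind, was in 8 members (21.1%) and in 8.75% of all. AAGATGGC, the core that YY1 binds, was in 4 members (10.5%) and in 3.17% of all. TATAAA was in 6 members (15.8%) and in 14.2% of all. The tract and the motifs were chosen after member sequences had been seen, and a first definition of the tract was replaced, so these shares are a description. The members also lie apart in the genome: the 43 with a placed gene fall on 14 chromosomes, with at most 8 on any one.

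The probe sets of most members were bright. In each organ 38 of the 45 had a mean log2 value of at least 11, which 2.32% of all probe sets reached in liver and 2.34% in kidney. The median SD within dose groups over the 45 members was 0.070 in liver and 0.083 in kidney. No SD of other bright probe sets is given beside these values. Over all arrays of an organ the steadiest were *Rps29*, *Rpl24* and *Rpl27* in liver (SD 0.0434 to 0.0604) and *Rpl7*, *Rpl5* and *Rpl19* in kidney (0.0436 to 0.0617). The most variable were *Rps4y2*, *Rpl28* and *Rpl3l* in liver (0.195 to 0.2999) and *Rps4y2*, *Rps27l* and *Rpl28* in kidney (0.25 to 0.3096), none of them among the bright ones. Another 2 members sat between 6 and 11, *Rps27l* with means of 8.42 in liver and 7.28 in kidney and *Rps4y2* with 7.70 and 7.33. The other 5, *Rpl39*, *Rps13*, *Rpl3l*, *Rpl30* and *Rpl28*, lay under 6 in both organs. A probe set's brightness depends on its probes as well as on the RNA, so no member's level is set against another's here, and small differences of the 5 dim probe sets are less certain.

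The first comparison asked whether any dose moved the members away from vehicle in liver. With limma, a linear model fitted over all probe sets with Benjamini-Hochberg adjustment, 0 of 45 members passed an adjusted p of 0.05 at any of the 6 doses, and the same count of 0 was found in every alternative fit of these 6 comparisons. Over all probe sets, 0% passed at 0.1, 1, 10 and 100 mg/kg, 0.122% at 300 mg/kg and 0.177% at 500 mg/kg. At the top dose, 500 mg/kg, 39 of 45 members had a mean below vehicle, and the median member difference was -0.080 log2, a fold of 0.946. Among all probe sets 48.8% lay below vehicle, with a median difference of 0.0044. Among the 682 other probe sets with a mean of at least 11, a limit chosen after values were seen, 43.8% lay below vehicle. Both subunits had much the same values at 500 mg/kg, with 13 of 15 small-subunit members below vehicle at a median of -0.078 and 26 of 30 large-subunit members at a median of -0.085.

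The shift at 500 mg/kg was small for each gene, and it was seen in every array of the group. For each array, the median over the 45 members of their difference from the vehicle mean was taken. The 4 arrays at 500 mg/kg read -0.091, -0.090, -0.088 and -0.079, with a mean of -0.087 ± 0.0057 (SD, n = 4). The 4 vehicle arrays read -0.069, -0.0032, 0.033 and 0.038, with an SD of 0.049. All 4 dosed arrays lay below all 4 vehicle arrays, with vehicle replicate 1 the nearest to them.

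**Figure D1:**
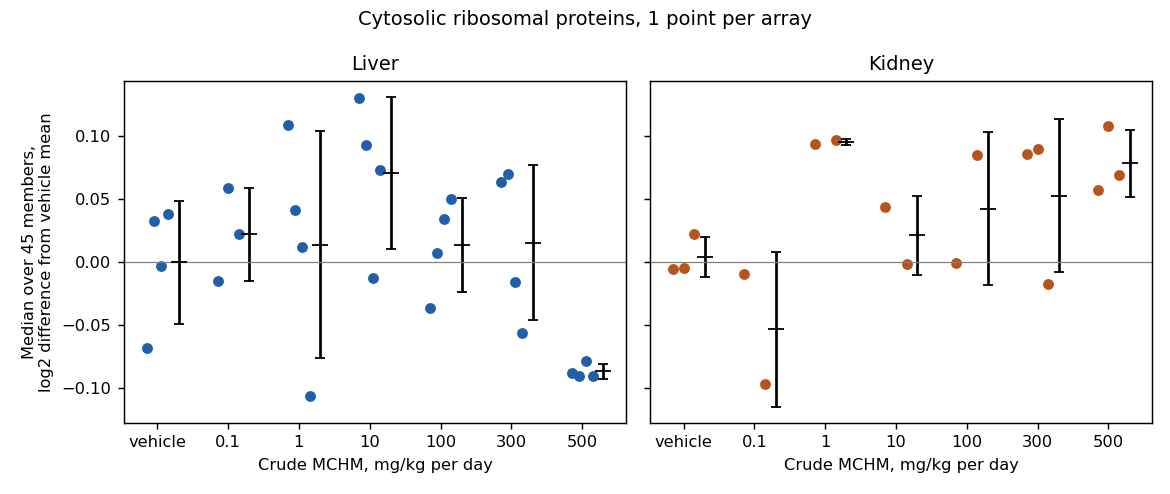
Median over the 45 cytosolic ribosomal proteins of the log2 difference from the vehicle mean (vertical axis), 1 point per array, by daily dose of crude MCHM in mg/kg (horizontal axis, not to scale), in liver (27 arrays) and kidney (17 arrays); black bars give the mean and SD of a group. The 4 liver arrays at 500 mg/kg sit between -0.091 and -0.079, below every vehicle array, while single arrays of other groups reach -0.107 and 0.131.

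The same summary moved about in groups with no such dose. At 1 mg/kg in liver the 4 arrays ran from -0.107 to 0.109, a spread (SD 0.090, n = 4) as wide as the difference at 500 mg/kg. Of the 23 liver arrays at other doses and vehicle, 22 lay above all 500 mg/kg arrays and 1 lay below them, replicate 4 at 1 mg/kg. The group means were 0.022 ± 0.037 (SD, n = 3) at 0.1 mg/kg, 0.014 ± 0.090 (n = 4) at 1 mg/kg, 0.071 ± 0.061 (n = 4) at 10 mg/kg, 0.014 ± 0.038 (n = 4) at 100 mg/kg and 0.016 ± 0.062 (n = 4) at 300 mg/kg. So the values from vehicle to 300 mg/kg overlapped, and 500 mg/kg was the only dose whose arrays all lay on one side of the vehicle arrays.

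At 500 mg/kg in liver 6 members had an unadjusted p under 0.05, all of them lower, and 0 were higher, where 3.95% of all probe sets were lower and 5.04% higher at that limit. *Rpl41*, which encodes the shortest ribosomal protein, read 12.47, 12.53, 12.56 and 12.57 in vehicle and 12.37, 12.39, 12.27 and 12.35 at 500 mg/kg. The groups did not overlap, and the means differed by -0.19 (SE 0.07, adjusted p = 0.362, limma), the smallest adjusted p of any member, with a range of 0.0738 to 0.58 over the alternative fits. *Rps16*, a small-subunit protein whose tail reaches the tRNA in the P site, read 11.95, 12.12, 12.14 and 12.22 in vehicle and 11.94, 11.90, 11.93 and 11.90 at 500 mg/kg. Its groups did not overlap either, though vehicle replicate 1 lay close to the dosed arrays, and the difference was -0.19 (SE 0.08, adjusted p = 0.453). *Rplp0*, the protein on which the stalk that recruits elongation factors is built, read 12.49, 12.56, 12.50 and 12.57 in vehicle and 12.38, 12.40, 12.43 and 12.35 at 500 mg/kg. Again all dosed arrays lay below all vehicle arrays, with a difference of -0.14 (SE 0.06, adjusted p = 0.509).

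The other 3, named after their values were seen, were *Rps24*, *Rpl27a* and *Rpl19*. *Rps24*, mutated in some human patients with Diamond-Blackfan anaemia, differed by -0.17 (SE 0.08), and its groups overlapped, because vehicle replicate 1 read 11.77 against 12.04 to 12.13 in the other 3 vehicle arrays. *Rpl27a* differed by -0.16 (SE 0.07) and *Rpl19* by -0.13 (SE 0.06), both with no overlap. In all, 15 of 45 members had every 500 mg/kg array below every vehicle array and 0 had every one above, where 2.43% of all probe sets were below. All 15 were among the 38 bright members, and of the 682 other probe sets with a mean of at least 11, 58 were below in the same way and 50 were lower at an unadjusted p under 0.05. The 15 were *Rpl41*, *Rps16*, *Rplp0*, *Rpl27a* and *Rpl19* together with *Rpl7*, *Rpl11*, *Rpl12*, *Rpl21*, *Rpl24*, *Rpl26*, *Rpl37a*, *Rps3a*, *Rps6* and *Rps23*. They share the same 8 arrays, so an array that is low for one tends to be low for all, and the 15 are not 15 separate observations.

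**Figure D2:**
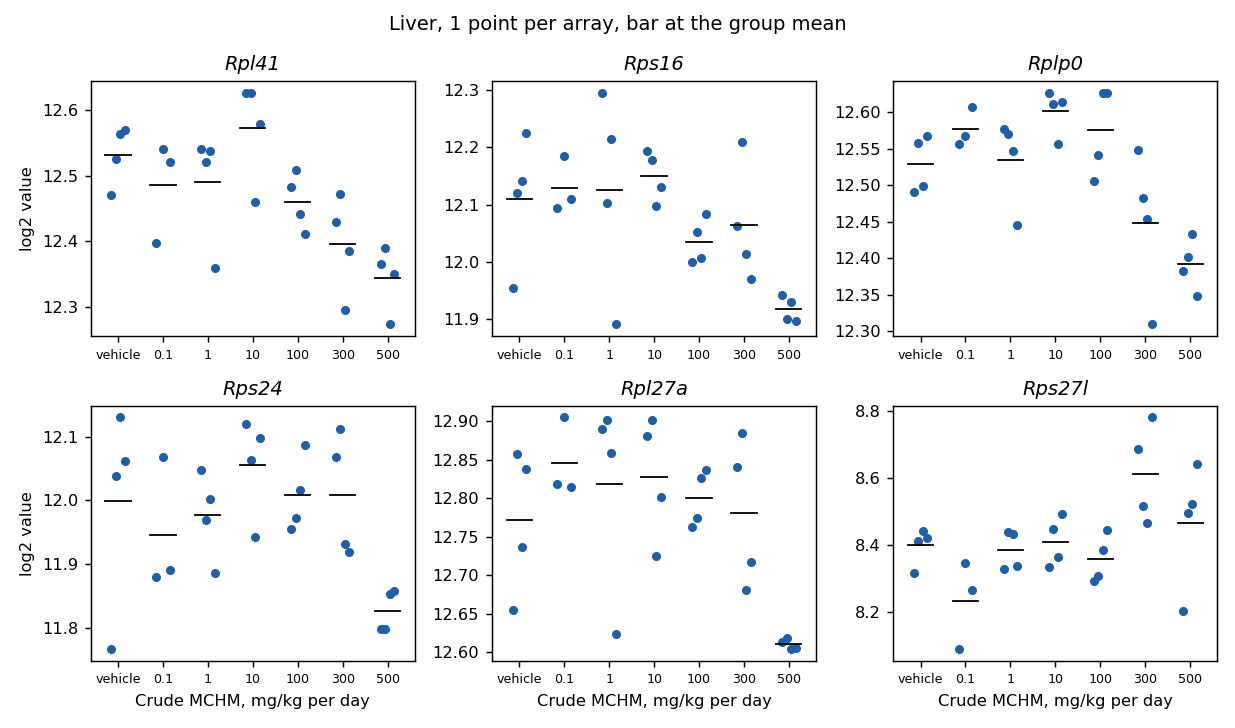
Log2 values of 6 members in the 27 liver arrays, 1 point per array with a bar at the group mean, by daily dose of crude MCHM in mg/kg (not to scale); the vertical axes differ between genes and do not start at 0. *Rpl41*, *Rps16*, *Rplp0* and *Rpl27a* have all 4 arrays at 500 mg/kg below all 4 vehicle arrays, *Rps24* overlaps through 1 vehicle array, and *Rps27l* has its highest array at 300 mg/kg.

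Other members named whatever their values, some of them with roles outside the ribosome, gave small differences at 500 mg/kg. *Rps6*, the main target of the S6 kinases, was 12.40 ± 0.053 (SD, n = 4) in vehicle and 12.30 ± 0.023 (n = 4) at 500 mg/kg. *Rpl5* and *Rpl11*, which with 5S RNA bind Mdm2 when ribosome assembly fails, differed by -0.066 (SE 0.08) and -0.090 (SE 0.07). *Rpsa*, which doubles as a laminin receptor precursor, differed by -0.12 (SE 0.08), and its 3 probe sets read -0.12, -0.12 and -0.092. *Rpl13a*, which in human cells also represses translation of inflammatory mRNAs, differed by -0.13 (SE 0.07), and *Rpl22* by -0.034 (SE 0.06). *Rpl3*, which shapes the peptidyl transferase centre, differed by -0.080 (SE 0.07), while its striated-muscle paralogue *Rpl3l*, whose probe set is dim in both organs, differed by 0.0475 (SE 0.14). *Rpl39*, which lines the exit tunnel, differed by -0.030 (SE 0.08) on a dim probe set. None of these passed the test.

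At the other end, *Rps27l*, which p53 induces in human and mouse cells, stood 0.067 above vehicle (SE 0.09) at 500 mg/kg and 0.21 above (SE 0.09, adjusted p = 0.405, limma) at 300 mg/kg. Its liver arrays read 8.32, 8.41, 8.44 and 8.42 in vehicle, 8.69, 8.52, 8.46 and 8.78 at 300 mg/kg, then 8.203, 8.496, 8.523 and 8.642 at 500 mg/kg. All 4 arrays at 300 mg/kg lay above all 4 vehicle arrays, as they did for 3.86% of all probe sets, and at 500 mg/kg the groups overlapped through replicate 1. *Rps13* (0.092, SE 0.13) and *Rpl28* (-0.24, SE 0.18) had the largest differences each way at 500 mg/kg, but on dim probe sets with wide error. Over the 38 bright members, the 95% intervals at 500 mg/kg in liver reached from -0.35 to 0.16, folds of 0.783 to 1.12 for single genes. Each interval was unadjusted for the number of members, so a larger change of a single gene is not excluded.

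**Figure D3:**
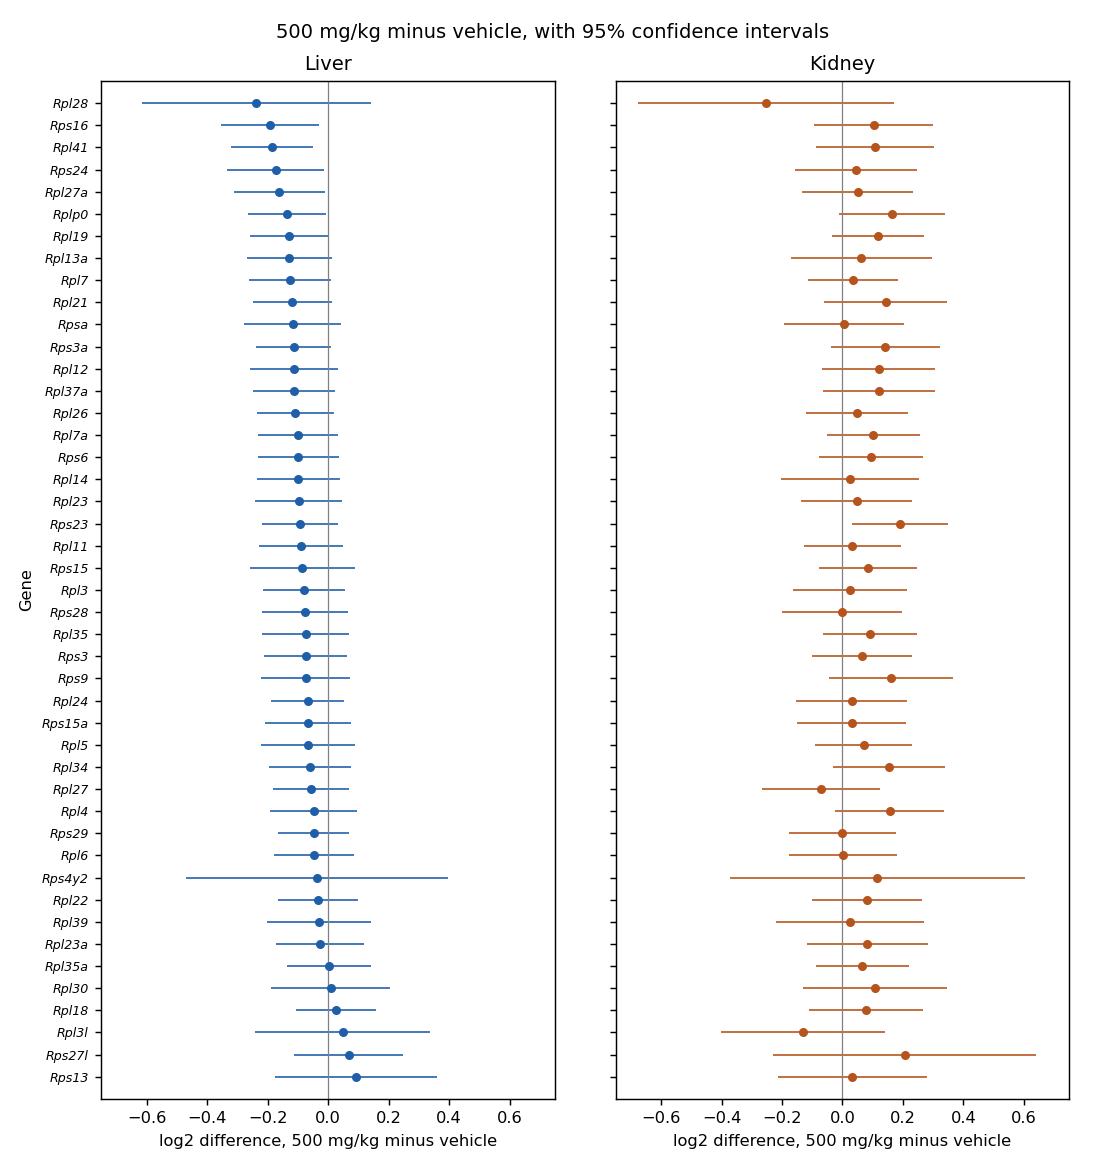
Log2 difference between 500 mg/kg and vehicle with its 95% confidence interval from limma (horizontal axes) for the 45 members, ordered by the liver value, in liver (4 against 4 arrays) and kidney (3 against 3 arrays). In liver 39 points lie left of 0 and 6 intervals exclude 0 on the low side; in kidney 40 points lie right of 0 and 1 interval, of *Rps23*, excludes 0.

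The lower doses gave no such one-sided pattern in liver except at 10 mg/kg, where it ran the other way. Below vehicle lay 12 of 45 members at 0.1 mg/kg (all probe sets 50.3%), 16 at 1 mg/kg (48.5%), 14 at 100 mg/kg (50.7%) and 14 at 300 mg/kg (51%), with member medians of 0.023, 0.0076, 0.013 and 0.0091. At 10 mg/kg 2 of 45 lay below (all probe sets 49.5%), the median was 0.069, and 6 members had every dosed array above every vehicle array, where 1.85% of all probe sets did. An unadjusted p under 0.05 was reached by 0 members at 0.1 mg/kg (2.89% of all probe sets higher, 2.21% lower), at 1 mg/kg (2.65% higher, 2.39% lower) and at 10 mg/kg (3.11% higher, 2.44% lower). It was reached by 1 member, higher, at 100 mg/kg (3.35% and 2.68%), and by 1 higher and 1 lower at 300 mg/kg (5.56% and 4.26%). The one lower at 300 mg/kg was again *Rpl41*, by -0.14 (SE 0.07, adjusted p = 0.509), at 12.40 ± 0.075 (SD, n = 4) against 12.53 ± 0.046 (n = 4). The other outermost members at 300 mg/kg were *Rpl28* (-0.2998, SE 0.18) and *Rpl3l* (-0.11, SE 0.14) below vehicle and *Rpl23a* (0.14, SE 0.07) and *Rpl3* (0.084, SE 0.07) above. Set side by side, 41 of 45 members were lower at 500 than at 300 mg/kg, and both doses share the vehicle arrays.

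A pair of contrasts used more arrays than a single dose. The 8 arrays at 300 and 500 mg/kg were set against the 11 at 0.1, 1 and 10 mg/kg, and 0 of 45 members passed with limma, where 0.554% of all probe sets did. The median was -0.073, 40 of 45 were lower (all probe sets 49.4%), and at an unadjusted p under 0.05 14 were lower and 1 was higher, where 6.04% and 6.06% of all probe sets were. *Rplp0* came nearest, at -0.15 (SE 0.04, adjusted p = 0.0917, range 0.00412 to 0.201 over the alternative fits), followed by *Rps27l* at 0.20 (SE 0.06, adjusted p = 0.127) and *Rpl41* at -0.15 (SE 0.04, adjusted p = 0.133). This was the one dose contrast in which the call hung on the fit. With dim probe sets left out, *Rplp0* (adjusted p = 0.0223) and *Rpl41* (0.041) passed, and with a trended robust variance *Rplp0* (0.00412), *Rpl41* (0.0145) and *Rpl37a* (0.0369) passed. Without 500 mg/kg replicate 1, *Rps27l* passed instead, at 0.24 (adjusted p = 0.0477).

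The slope over the 7 dose levels in liver passed for 0 of 45 members with limma and for 0.245% of all probe sets. It was below 0 for 39 members (all probe sets 49.8%). For 5 of them, *Rpl41*, *Rps16*, *Rplp0*, *Rpl27a* and *Rpl28*, the unadjusted p was under 0.05, as for 5.11% of all probe sets. *Rpl41* had the smallest adjusted p, 0.2, at -0.028 log2 per level (SE 0.0093). *Rps27l* was the 1 member with a slope above 0 at that limit, at 0.031 per level (SE 0.013, adjusted p = 0.349), where 6.12% of all probe sets had one. The next above 0 were *Rpl18* (0.0072) and *Rps4y2* (0.0147).

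The kidney comparison asked the same of the second organ. With limma, 0 of 45 members and 0% of all probe sets passed at any of the 6 doses, in the high-against-low contrast or in the slope, and the count of members was 0 in every alternative fit of these. In the 500 mg/kg group 5 of 45 members lay below vehicle and 40 above, with a median difference of 0.070, whereas 53.2% of all probe sets lay below and their median was -0.013. The per-array medians were 0.058, 0.108 and 0.070 at 500 mg/kg (mean 0.078 ± 0.026, SD, n = 3) and -0.0057, -0.0044 and 0.022 in vehicle (SD 0.016). All 3 dosed arrays lay above all 3 vehicle arrays. In 13 of 45 members every dosed array lay above every vehicle array, and in 0 below, where 7% of all probe sets were above. The share among other bright probe sets is not given for kidney, and in liver it differed from that of all. At an unadjusted p under 0.05, 1 member was higher and 0 were lower, where 4.95% and 5.13% of all probe sets were.

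That member was *Rps23*, a protein of the decoding centre. Its kidney arrays read 12.85, 12.91 and 12.95 in vehicle, 13.04, 13.01 and 12.99 at 300 mg/kg, then 13.06, 13.12 and 13.09 at 500 mg/kg. The 500 mg/kg arrays lay above all other kidney arrays but 1, the second at 100 mg/kg with 13.07, and the difference from vehicle was 0.19 (SE 0.07, adjusted p = 0.411 in limma, range 0.289 to 0.891 over the alternative fits). *Rplp0* came next among the bright members, at 0.16 (SE 0.08, adjusted p = 0.527), from 12.59 ± 0.029 (SD, n = 3) to 12.75 ± 0.072 (n = 3). *Rps27l* had the largest difference, 0.21, but with an SE of 0.20. The lowest were the dim *Rpl28* (-0.25, SE 0.20) and *Rpl3l* (-0.13, SE 0.13) and the bright *Rpl27* (-0.070, SE 0.09). *Rpl7* shows how probe sets can part: its bright one differed by 0.034 and its dimmer one by 0.639.

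Groups of 2 and 3 arrays gave values of like size at doses far apart in kidney. At 1 mg/kg 4 of 45 members lay below vehicle and 41 above (all probe sets 50.6% below), with a median of 0.086, and 19 of them had both dosed arrays above all 3 vehicle arrays, where 11.5% of all probe sets did. At 0.1 mg/kg, on 2 arrays, 37 of 45 lay below vehicle (all probe sets 52.1%), with a median of -0.060, and 9 had both arrays below, where 10.3% of all probe sets did. Without replicate 2 at 0.1 mg/kg the median was -0.0099. Below vehicle lay 17 of 45 at 10 mg/kg (all probe sets 48.2%), 12 at 100 mg/kg (50.4%) and 8 at 300 mg/kg (49.6%), with medians of 0.028, 0.038 and 0.052. The 10 and 100 mg/kg medians each rested on 1 array, being -0.0012 without 10 mg/kg replicate 1 and -0.00060 without 100 mg/kg replicate 2. At 300 mg/kg the median was 0.031 without replicate 2, the array with the high *Gapdh* 3′ excess. The outermost members at 300 mg/kg were *Rps4y2* (-0.22, SE 0.23), *Rps13* (-0.058, SE 0.11) and *Rpl14* (-0.034, SE 0.11) below vehicle and *Rpl39* (0.18, SE 0.11), *Rps16* (0.13, SE 0.09) and *Rpl34* (0.12, SE 0.09) above, each with an adjusted p of 0.999 in limma. The per-array medians did not follow dose in order: the highest group mean, 0.095 ± 0.0023 (SD, n = 2), was that of 1 mg/kg. An unadjusted p under 0.05 was reached by 1 member, higher, at 0.1 mg/kg (3.51% of all probe sets higher, 2.39% lower). It was reached by 0 at 1 mg/kg (3.94% and 3.05%), 10 mg/kg (2.55% and 2.35%), 100 mg/kg (1.97% and 1.98%) and 300 mg/kg (1.79% and 1.83%).

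In the kidney slope, 5 of 45 members lay below 0 (all probe sets 51.1%) and 40 above, and 4 of the latter, *Rps23*, *Rpl34*, *Rpl37a* and *Rpl19*, had an unadjusted p under 0.05, where 2.67% of all probe sets did; 0 members and 4.44% of all probe sets had one below 0. *Rps23* had the smallest adjusted p, 0.641, and below 0 the smallest p were those of *Rpl28* (-0.023 per level), *Rps4y2* (-0.018) and *Rpl27* (-0.0060). In the contrast of 300 and 500 against 0.1, 1 and 10 mg/kg, 8 of 45 lay below 0 (all probe sets 51.9%), with a median of 0.038, and 0 had an unadjusted p under 0.05 (3.45% of all probe sets higher, 4.77% lower). Another measure of the arrays differed between the kidney groups too. The beta-actin control read 2.17, 2.68 and 2.82 higher at its 3′ than at its 5′ probe set in vehicle, and 2.16, 2.05 and 1.92 at 500 mg/kg, with no overlap, and 2.02 and 2.04 at 0.1 mg/kg. The *Gapdh* excess read 0.31, 0.57 and 0.60 in vehicle, and 0.25, 0.35 and 0.19 at 500 mg/kg, with overlap. At 0.1 mg/kg it read 0.42 and 0.23. The part of either excess in the kidney values was not tested. In liver the beta-actin excess was 1.25 ± 0.047 (SD, n = 4) in vehicle and 1.23 ± 0.057 (n = 4) at 500 mg/kg.

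The 2 organs were set against each other at the same dose in 1 fit of all 44 arrays. Of the 45 members at 500 mg/kg, 35 lay below vehicle in liver and above it in kidney, 4 below in both, 5 above in both and 1 above in liver and below in kidney. The liver change minus the kidney change was below 0 for 41 of 45 members, with a median of -0.144, where 47.1% of all probe sets were below 0. With limma 0 of 45 passed, as in every alternative fit, and 0.029% of all probe sets did. At an unadjusted p under 0.05, 13 were lower and 0 higher, where 4.92% of all probe sets were lower and 4.99% higher. *Rplp0* (-0.30, SE 0.09, adjusted p = 0.182) and *Rps23* (-0.28, SE 0.09, adjusted p = 0.181) came nearest, and the range over the alternative fits was 0.0533 to 0.491 for *Rps23*. For 300 mg/kg 28 of 45 were below 0 (all probe sets 50.9%), with a median of -0.026, and 0 passed the test, where 0% of all probe sets did. There 1 member, *Rpl41*, had an unadjusted p under 0.05, at -0.24 (SE 0.10), where 2.91% of all probe sets were lower and 3.41% higher.

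In vehicle rats, the organs themselves differed for many members, and for a like share of all probe sets. Vehicle kidney against vehicle liver, 26 of 45 members passed with limma, 23 higher and 3 lower in kidney, and the median difference was 0.235. That share, 57.8%, stood beside 61.4% of all probe sets, of which 8849 were higher and 10198 lower in kidney, with a median of -0.107. Bright probe sets leaned towards kidney as a whole: of the 497 others with a mean of at least 11, 274 were higher and 147 lower, with a median of 0.277. Of the 38 bright members 22 were higher and 2 lower, with a median of 0.262. The values of a gene in the organs are on 1 scale only if the deposited arrays were normalized together, which the sources used here do not say. *Rpl35a*, a large-subunit protein mutated in some human patients with Diamond-Blackfan anaemia, was 0.67 higher in kidney (SE 0.07, adjusted p = 3.16e-11), a fold of 1.59. Its vehicle arrays read 12.66, 12.70 and 12.63 in kidney and 11.94, 12.02, 11.98 and 12.03 in liver, far apart. *Rpsa* was 0.59 higher (SE 0.08, adjusted p = 1.4e-07), with 0.25 and 0.58 at its other probe sets, and *Rps29*, a zinc-binding small-subunit protein, 0.51 higher (SE 0.06, adjusted p = 6.71e-09).

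Of the 3 members lower in kidney, *Rps27l* differed most, by -1.26 (SE 0.14, adjusted p = 7.09e-10), a fold of 0.417, with 7.20, 7.01 and 7.20 in kidney and 8.32 to 8.44 in the 4 liver arrays. *Rpl4*, which reaches into the exit tunnel, gave -0.34 (SE 0.07, adjusted p = 0.000119), with 11.94, 11.82 and 11.95 in kidney and 12.12 to 12.29 in liver. *Rps9* gave -0.18 (SE 0.08, adjusted p = 0.0449), the smallest of the 3. *Rps4y2* (-0.47, SE 0.23, adjusted p = 0.0788) and the dim *Rpl3l* (-0.28, SE 0.14, adjusted p = 0.085) did not pass, and the dim *Rpl28* (0.45, SE 0.20, adjusted p = 0.0487) passed by little and lost its call when any of 5 of the 7 vehicle arrays was left out. The large-subunit members had a median of 0.262 and the small-subunit members one of 0.113.

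**Figure D4:**
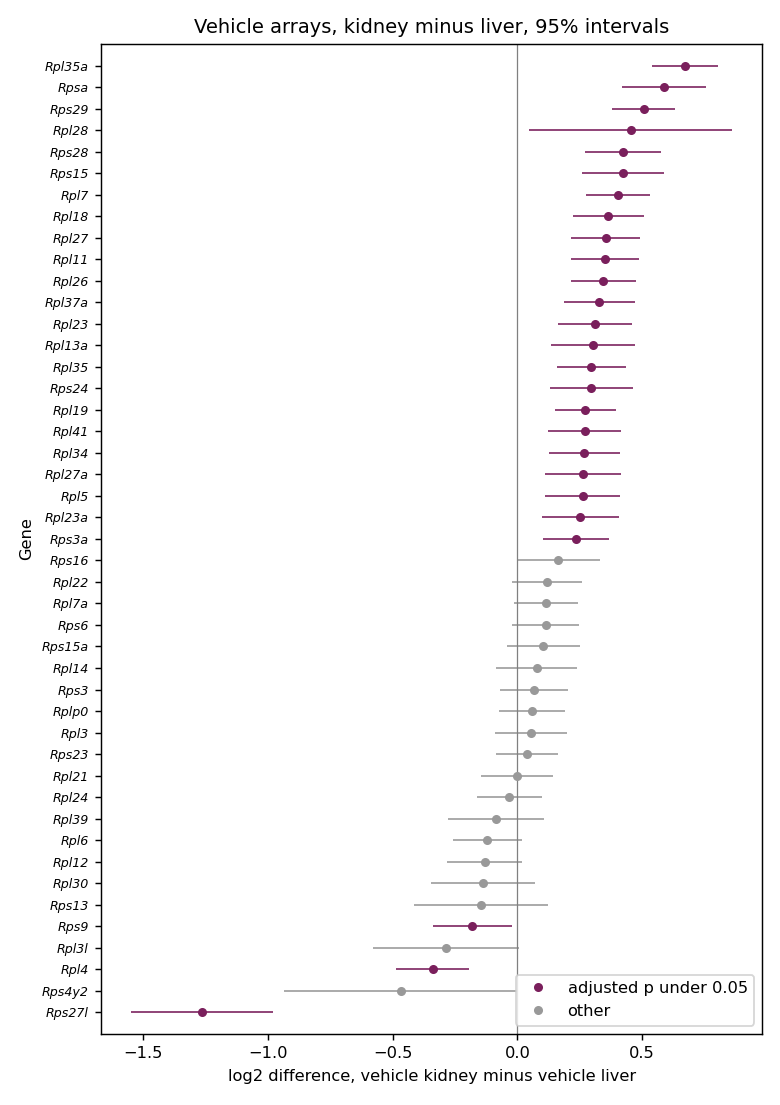
Log2 difference between vehicle kidney (3 arrays) and vehicle liver (4 arrays) with its 95% confidence interval (horizontal axis) for the 45 members, in order of size; coloured points passed an adjusted p of 0.05 in limma. *Rps27l* stands alone at the low end, at -1.26, and *Rpl35a* at the high end, at 0.67.

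The liver values are given here by whether a tract was found at the start. Among the bright members with a RefSeq start region, the 17 with a tract had a median of -0.093 at 500 mg/kg in liver, 16 of them below vehicle, and the 15 without one had a median of -0.099, 14 of them below. In kidney the medians were 0.081 and 0.064. The 30 probe sets annotated to several ribosomal protein symbols gave like values: 28 of 30 lay below vehicle at 500 mg/kg in liver, with a median of -0.082, and 25 of 30 above in kidney, with a median of 0.066. Neither set was tested.

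Other gene lists of protein synthesis and breakdown had medians on either side of vehicle in liver at 500 mg/kg. The mitochondrial ribosomal proteins, which serve the separate ribosomes of mitochondria, had 9 of 73 below vehicle and a median of 0.089, from *Mrpl48* (-0.067) and *Mrpl41* (-0.062) to *Mrps27* (0.257) and *Mrpl47* (0.336). The proteasome subunits, parts of the complex that degrades proteins, had 1 of 36 below, *Psmb10* (-0.031), and a median of 0.179, from *Psma3* (0.0485) up to *Psmb8* (0.57, SE 0.22), a subunit of the immunoproteasome, and *Psmc5* (0.32), an ATPase of its cap. Of both lists 0 passed with limma, and 14 and 26 were higher at an unadjusted p under 0.05, where 5.04% of all probe sets were. The per-array proteasome medians were 0.183 ± 0.013 (SD, n = 4) at 500 mg/kg and 0.0044 ± 0.076 (n = 4) in vehicle, so these groups did not overlap.

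Genes that build ribosomes had their largest liver values at 300, not at 500 mg/kg. Of 58 ribosome biogenesis factors, all 58 lay above vehicle at 300 mg/kg, with a median of 0.292. None passed with limma, but 40 had an unadjusted p under 0.05, where 5.56% of all probe sets were higher, and the smallest adjusted p was 0.0587, for *Gar1* (0.68), of the particles that pseudouridylate ribosomal RNA. At 500 mg/kg the median was 0.105 with 10 below vehicle, the largest being *Polr1e* (0.52), a subunit of RNA polymerase I, and *Noc4l* (0.30), and the lowest *Noc3l* (-0.079) and *Rrs1* (-0.072). At 0.1 mg/kg, the lowest dose, the per-array median was 0.228 ± 0.044 (SD, n = 3), so the list did not follow dose in order. In kidney at 500 mg/kg the medians of the biogenesis, mitochondrial and proteasome lists were 0.014, -0.017 and -0.032.

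Of 29 initiation factors, 2 rose at 300 mg/kg in liver: *Eif2s2*, the beta subunit of eIF2, by 0.35 (adjusted p = 0.0328), and *Eif2b3*, a subunit of its exchange factor, by 0.49 (adjusted p = 0.0438). The list's median was 0.147 there and 0.066 at 500 mg/kg, where 0 passed and values ran from *Eif2b2* (-0.0795) and *Eif4b* (-0.066) to *Eif3j* (0.246) and *Eif2b3* (0.271). Of 16 kinases and repressors that act on translation, *Eif4ebp1*, the repressor that mTOR switches off, rose at 300 mg/kg by 0.50 (adjusted p = 0.0428) and read 0.325 (adjusted p = 0.27) at 500 mg/kg. The other outermost genes of that list at 500 mg/kg were *Mknk2* (0.4956), *Pdcd4* (-0.18) and *Rptor* (-0.11). In the list of 9 elongation and release factors the median was -0.058 at 500 mg/kg. It ran from *Eef1b2* (-0.17) and *Eef2* (-0.13) to *Eif5a* (0.098) and *Eef1e1* (0.11), an elongation factor by name only. In 16 other transcripts known to carry a pyrimidine tract, a list that shares factors with the previous ones, 13 lay below vehicle at 500 mg/kg, with a median of -0.052, from *Gas5* (-0.37), a noncoding RNA, and *Eef1b2* to *Eif2s3* (0.0080) and *Eef1d* (0.046). The 5 ubiquitin fusions and ribosome-bound partners had a median of -0.046, with *Nacad* at -0.084, *Rack1* at -0.065, *Rrbp1* at -0.023 and *Ltv1*, a factor of 40S assembly, at 0.19.

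**Figure D5:**
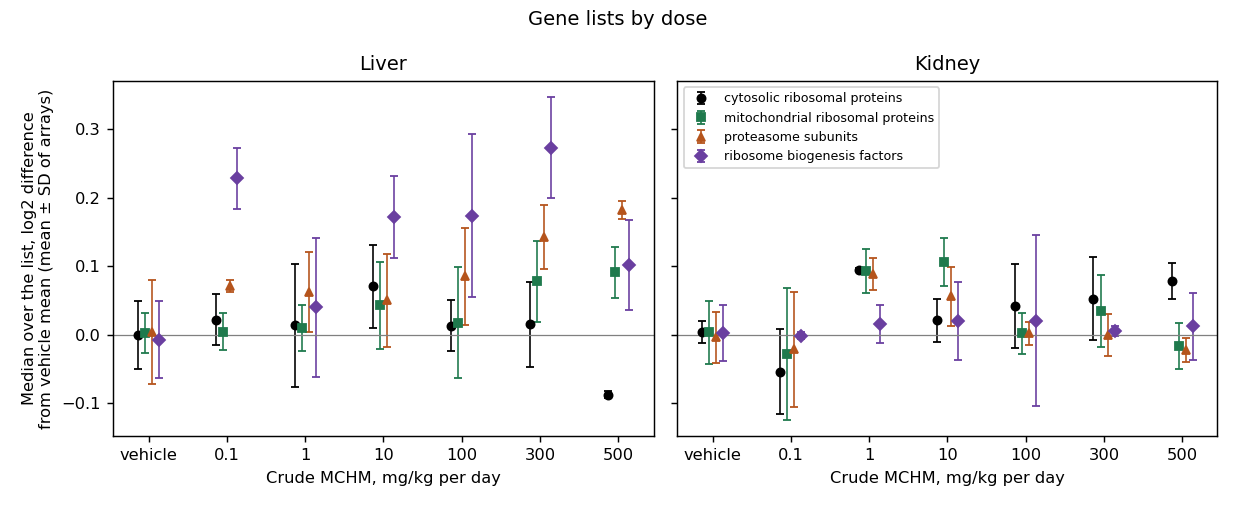
Per-array median of the log2 difference from the vehicle mean over 4 gene lists (vertical axis), as mean ± SD of the arrays of a group, by daily dose of crude MCHM in mg/kg (horizontal axis, not to scale), in liver and kidney. In liver at 500 mg/kg the cytosolic ribosomal proteins (45 genes) stand at -0.087, and the mitochondrial ribosomal proteins (73), biogenesis factors (58) and proteasome subunits (36) at 0.091, 0.102 and 0.183.

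Most of the markers given here for liver cells other than hepatocytes had means below vehicle at 500 mg/kg. The erythroid, collecting duct and adipocyte markers that were also listed are not given here. Of the liver markers given here 1 passed the test, *Jchain*. The ranges of the mean level in the vehicle and dosed arrays overlapped for the cholangiocyte, macrophage and lymphocyte lists and did not for the stellate and endothelial lists. The stellate cell and fibroblast markers lay below vehicle for 7 of 7, with a median of -0.40, and their mean level was 6.15 to 6.40 against 6.54 to 7.45 in vehicle. The macrophage markers lay below for 5 of 6 (-0.25), at 7.56 to 7.76 against 7.76 to 8.12, the endothelial markers for 4 of 5 (-0.14), at 7.53 to 7.69 against 7.74 to 7.89, and the cholangiocyte markers for 4 of 4 (-0.30), at 5.597 to 5.79 against 5.63 to 6.76. The lymphocyte and plasma cell markers lay below for 8 of 8 (-0.16), at 4.83 to 5.14 against 4.97 to 5.25, and *Jchain*, the joining chain of secreted antibodies, fell, with -0.81 (adjusted p = 0.0472). The hepatocyte markers had a median of -0.012, with *Alb* at 0.0083 and *Apoa1* at -0.31 (adjusted p = 0.111). The stellate markers had a median of -0.39 at 300 mg/kg, a dose for which the other marker lists are not given here. No marker is at 0 on this log2 scale, the dimmest being *Krt7* at 3.98 and *Cd3g* at 4.38. In kidney at 500 mg/kg the endothelial markers had a median of -0.28 (5 of 5 below), the podocyte markers -0.26 (3 of 4), the proximal tubule markers -0.16 (5 of 6) and the thick limb and distal tubule markers 0.30 (3 of 5 above), and 0 of these passed. The part of such cells in the members' values was not tested.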

How the data were processed

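Total RNA of liver and kidney was hybridised to Affymetrix rat arrays. The authors deposited log2 values made by RMA, per the submitters' processing notes, a method that subtracts background, gives arrays 1 distribution and fits a value per probe set. Its software, and whether both organs were normalized together, is not given in the sources used here. Changes of dim probe sets are understated on this scale. Each array took its group from its title. Of 31099 probe sets, 57 controls were left out and 31042 tested, and 0 pairs of arrays held identical values. Probe sets took their genes from the platform annotation, and gene ID matched 49 of 51 member probe sets to RefSeq's GRCr8 table, used for names and start regions (*Rpl37a* and *Rps9* kept the annotation's name).

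Then limma 3.58.1, run under R 4.3.3 (lmFit, eBayes, two-sided, no covariates) fitted each organ's 7 groups together, and all 44 arrays in 1 fit for organ contrasts. Adjusted p-values are Benjamini-Hochberg over all 31042 probe sets, with a threshold of 0.05. The slope ran over dose levels 0 to 6. Each dose of an organ shares its vehicle arrays with the other doses. The fit was tested on simulated data with independent noise and planted changes far larger than the members' differences. That test does not show whether shifts as small as these would be found. The number of arrays limits the precision.

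The members and gene lists were chosen with earlier results of these data known. The naming rule took members past the threshold, and the 3 outermost each way at 300 and 500 mg/kg and in SD. It also took the 4 each way between organs and the 3 each way of smallest p in each slope. A fixed set of members, some with a role outside the ribosome, was named whatever the values. Of other lists, the 2 outermost each way at 500 mg/kg were named. Members in counts of unadjusted p or of groups without overlap, *Rps9*, and list genes at 300 mg/kg or among markers were named after their values were seen. Correlations of deviations from the group means were taken between same-numbered arrays. They ran from -0.14 to 0.23 over 78 liver pairs and from -0.35 to 0.36 over 39 kidney pairs. Over 16 liver-kidney pairs of a dose they ran from -0.10 to 0.18. The medians were 0.019, 0.048 and 0.024, against -0.0069, -0.048 and -0.024 for pairs with different numbers. Same-numbered pairs were thus slightly higher. The main fits have no block, and a block was fitted as an alternative. *Xist* was high in vehicle replicate 2 of both organs; whether that number marks 1 rat was not tested, and organ contrasts treat all arrays as separate. Alternatives were a second quantile normalization, a filter on dim probe sets, all probe sets of a gene averaged, a trended robust variance, fits of 2 groups, a replicate block and each array left out.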

Additional observations from a re-analysis of the deposited data

Results flagged for a closer look

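Dixon's test was run on 180 groups of 4 liver arrays, over 29 members and their per-array median in 6 dose groups, and 16 groups held an array far from the others. Chance alone marks about 1 in 20 groups, and members share arrays.

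In liver vehicle replicate 1, *Rpl13a* read 11.872 (the other vehicle arrays 12.042 to 12.063), *Rpl19* 12.51 (12.601 to 12.61), *Rpl4* 12.115 (12.268 to 12.29), *Rpl5* 12.589 (12.717 to 12.734) and *Rpl7* 12.385 (12.452 to 12.465). All 5 lay below the other vehicle arrays. Without that array the liver median at 500 mg/kg was -0.106, with 41 of 45 members below vehicle.

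In liver 1 mg/kg replicate 4, *Rpl35a* read 11.818 (the others of its group 12.06 to 12.106), *Rpl37a* 12.491 (12.715 to 12.736) and *Rpl41* 12.36 (12.52 to 12.541), all lower. In 10 mg/kg replicate 3, *Rpl4* read 12.263 (12.373 to 12.391) and *Rpsa* 11.816 (12.053 to 12.056). In 100 mg/kg replicate 3, *Rps23* read 12.827 (12.901 to 12.907) and the dim *Rpl3l* 3.396 (3.711 to 3.743), and in 300 mg/kg replicate 3 the dim *Rpl39* read 5.803 (5.933 to 5.951).

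At 500 mg/kg the arrays apart were high ones: the dim *Rpl28* at 3.34 in replicate 3 (2.957 to 2.997), *Rpl35a* at 12.065 in replicate 2 (11.967 to 11.971) and *Rps4y2* at 7.961 in replicate 1 (7.538 to 7.606).

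The per-array medians lay on opposite sides of vehicle in the organs at 500 mg/kg: every liver array had a per-array median below the vehicle mean (mean -0.0869) and every kidney array one above it (mean 0.0784), a difference of -0.1653. Of the 45 members 35 lay below vehicle in liver and above it in kidney. The difference of these medians was not tested, and 0 of 45 members passed limma's test of the organ difference.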

How the results depend on the processing

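With 0 members called in the dose comparisons, the counts could move in 1 contrast: 300 and 500 against 0.1, 1 and 10 mg/kg in liver, with 2 calls when dim probe sets were left out (41 members fitted), 3 with a trended robust variance, and 0 to 1 with single arrays left out. The cause was not tested. Of 296 alternative values of counts 293 stayed within 1.5 times, and of 192 of medians 187 moved by less than 1 SD of the arrays. Nearly all of these counts were 0 in the main fit. A trended variance or a fit of 2 groups leaves the median of a dose as it was. So does the block where 2 groups hold the same replicate numbers. Part of this agreement was thus fixed in advance. The kidney 1 mg/kg median was 0.0579 after a second quantile normalization. Leaving out single arrays gave kidney medians between -0.0974 and -0.0099 for the 0.1 mg/kg dose, between -0.0012 and 0.0436 for 10 mg/kg, and between -0.0006 and 0.0855 for 100 mg/kg. The liver median for 500 mg/kg lay between -0.106 and -0.0685. Without the vehicle arrays with high *Xist* the 500 mg/kg medians were -0.0685 in liver and 0.057 in kidney.

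Signs turned for small values of single genes. *Rpl14* at 300 mg/kg in kidney read 0.0216 with all its probe sets averaged. With single arrays left out, it ran from -0.121 to 0.0805 and *Rps13* from -0.186 to 0.059. At 500 mg/kg in kidney *Rpsa* ran from -0.0168 to 0.0176, *Rpl3* from -0.026 to 0.0978, *Rpl39* from -0.0559 to 0.0788 and *Rpl13a* from -0.0089 to 0.147. At 500 mg/kg in liver *Rpl39* ran from -0.0807 to 0.0117, *Rpl3l* from -0.0214 to 0.121 and *Rps13* from -0.0008 to 0.187. Slopes ran from -0.0452 to 0.0002 for *Rpl28* and from -0.0528 to 0.0009 for *Rps4y2* in kidney, and from -0.0015 to 0.0276 for *Rps4y2* in liver.

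A fit with the replicate number as a block left out the unnumbered kidney array at 10 mg/kg. The member medians at 500 mg/kg were -0.0796 in liver and 0.0702 in kidney, as in the main fit. They could not differ, because the vehicle and 500 mg/kg groups of an organ hold the same replicate numbers. With the block 0 members were called at 500 mg/kg, and 26 of 45 differed between vehicle organs. The block moved no count of called members. Single calls between vehicle organs did turn: *Rps4y2* passed (-0.51, adjusted p = 0.0399) and *Rpl28* did not (0.40, adjusted p = 0.0602).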
